A study of Homo sapiens with 6 samples.

Results

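The 40 genes described here, apart from MIR17HG, encode the proteins that make, load and turn over microRNAs and those that deadenylate, decap and degrade messenger RNA. They were selected by symbol, as rows of the count table whose name is on a fixed list, with no measured value in the rule. The list itself was chosen with earlier results of these data known, which limits comparisons of its shares with those of all genes. Of the 40, 39 had a row among the 35615 symbols of the table, and all 39 passed the filter on low counts that left 14543 genes for testing. MIR17HG, the host transcript of the miR-17-92 cluster that contains miR-92a-1, was not analysed here.

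The samples were cultures of K562, a human leukaemia line established from a patient with chronic myeloid leukaemia and driven by the BCR-ABL1 kinase. The mimic group comprised 3 cultures (miR92a 1 to 3) in which 5 M cells took up, by nucleofection, 500 pmol of a hsa-miR-92a-1-5p mimic, and the control group comprised 3 (scramble 1 to 3) given the same amount of a negative-control mimic. Imatinib, which inhibits the ABL1 kinase, was present in all 6 at 1 µM from 4 h after the mimic, and RNA was extracted 24 h after the drug. No culture without imatinib or without a mimic was used here, so every difference below is between mimics under the drug. The labels name 1 line as the source of all cultures and call the cells myeloblasts. MPO, a defining gene of that cell type, had 0 counts in all 6 libraries, which allows up to 0.125 CPM (3 counts) in each of the 5 deep libraries and 4.08 CPM in miR92a 1, whereas the erythroid factors GATA1 and KLF1 lay at 171 to 222 and 262 to 321 CPM (counts per 1 M, scaled by TMM) in the control and mimic libraries. LYZ, a gene of granulocytes and monocytes, lay at 10.2 to 57.9 CPM. Of the markers of other tissues and lineages examined, EPCAM lay at 135 to 177 CPM and PECAM1 at 9.58 to 27.2 CPM. COL1A1, CD3E and CD79A did not exceed 3.71 CPM in any library. The level of the mimic itself was not analysed here.

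A microRNA is cut from its primary transcript in the nucleus by DROSHA with DGCR8, exported by XPO5, cut again by DICER1 with the help of TARBP2 or PRKRA, and loaded into an Argonaute protein. A synthetic mimic enters this path at the loading step. Argonaute binds a GW182 protein (TNRC6A, TNRC6B or TNRC6C), which recruits the PAN2-PAN3 and CCR4-NOT deadenylases to a target; the deadenylated messenger is then decapped by DCP2 and digested by XRN1. A target is recognised mainly through the seed, bases 2 to 8 of the microRNA.

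The mature strands show which letters a target must hold. The mimic carries the first of these; the second is the partner strand of the same hairpin, with a different seed (RefSeq, GRCh38.p14, chromosome 13, plus strand, 91351324 to 91351346 and 91351361 to 91351382). Capitals mark the seed.

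hsa-miR-92a-1-5p: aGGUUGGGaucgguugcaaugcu

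hsa-miR-92a-3p: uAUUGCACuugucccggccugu

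The seed of miR-92a-1-5p pairs with CCCAACC (called 7mer-m8), with CCAACCA (7mer-A1, whose last A lies opposite base 1) or with both together, CCCAACCA (8mer); CCAACC alone is a 6mer, and each class excludes those above it. No other mature microRNA of the RefSeq table shared this seed, whereas the miR-92a-3p seed was shared by 5 others: miR-92b-3p, miR-25-3p, miR-32-5p, miR-363-3p and miR-367-3p. In the longest annotated 3′ UTR, 10 of the 39 members (25.6%) held at least 1 miR-92a-1-5p 7mer or 8mer on the sense strand, against 16.8% of the 13135 tested genes with a 3′ UTR. The members' 3′ UTRs were longer (median 1930 against 1324 bases), and their matches were fewer per length (0.0877 against 0.107 per kb of 3′ UTR). The 10 members were XPO5, DICER1, AGO1, AGO2, AGO3, TNRC6A, TNRC6B, CNOT6, CNOT6L and EDC3, and none held an 8mer there.

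The sites below are those of TNRC6B, the member with the largest decrease, of both CCR4-type deadenylases, and of TNRC6A, a relative of TNRC6B that has a site of the same class in its 3′ UTR. They are read on the sense strand from GENCODE release 29 transcripts, with the match in capitals.

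TNRC6B, 3′ UTR, 7mer-m8: tccctcagtcCCCAACCctggacgtgt

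TNRC6B, coding, 7mer-A1: caagtttaagCCAACCAacggccgcca

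TNRC6B, coding, 7mer-m8: cggcacctccCCCAACCcaattcacat

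TNRC6B, coding, 7mer-A1: gtggtccaaaCCAACCAaattctagca

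TNRC6B, coding, 7mer-A1: ctccagaattCCAACCAggagtgccat

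TNRC6A, 3′ UTR, 7mer-m8: tctattcctcCCCAACCcccccccccg

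CNOT6L, 3′ UTR, 7mer-A1: tttcagtgagCCAACCAttttataaaa

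CNOT6, 3′ UTR, 7mer-A1: ctactcatagCCAACCAataaattcag

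On GRCh38 the TNRC6B matches lie on the plus strand of chromosome 22, the 3′ UTR match at 40328126 to 40328132 and the coding matches, in the order printed, at 40261860 to 40261866, 40264771 to 40264777, 40265817 to 40265823 and 40312509 to 40312515. The TNRC6A match is at 24824122 to 24824128 of chromosome 16 (plus strand), that of CNOT6L at 77720068 to 77720074 of chromosome 4 (minus strand) and that of CNOT6 at 180577941 to 180577947 of chromosome 5 (plus strand). Counted from the first base of the 3′ UTR, these matches begin at base 4885 of 12567 in TNRC6B, 315 of 2420 in TNRC6A, 357 of 7044 in CNOT6L and 3741 of 4205 in CNOT6. TNRC6B was the only one of the 39 members with 4 coding matches; 58 of the 13135 tested genes (0.442%) had 4 or more. The median log2 fold change of those 58 genes, TNRC6B among them, was -0.25, against -0.01 over all tested genes. Their 3′ UTR matches were not set apart, and the difference was not tested. At least 1 coding match for miR-92a-1-5p was found in 13 members (33.3%), against 20.1% of tested genes, with coding length not compared. DROSHA, AGO4, ZSWIM8 and PATL1 each held a coding 8mer, with log2 fold changes of -0.08, -0.002, 0.15 and -0.03. EDC3 and DCP1A held 2 coding matches each (0.06 and -0.31). TNRC6B and CNOT6 also held a 7mer-A1 for miR-92a-3p in the 3′ UTR, and CNOT6 and CNOT6L each held a coding 8mer for it. The matches alone therefore do not separate the strands for TNRC6B, CNOT6 and CNOT6L. Which isoforms K562 cells use was not measured.

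Of the libraries, 5 held 24.8 to 26.0 M counts and miR92a 1 held 0.704 M. The median count over the 39 members was 62 in miR92a 1 and 2048 to 2286 in the others. Both libraries numbered 3 stood apart from the other deep libraries of their group: the chi-square per gene was 48.4 and 43.0 between scramble 3 and scramble 1 or 2 against 4.83 between scramble 1 and 2, and 43.8 between miR92a 3 and miR92a 2. HBZ, the embryonic zeta globin gene, lay at 4895 and 4419 CPM in the libraries numbered 3 and at 1558 to 2511 CPM in the other 4, and its part in the results was not tested. Values of miR92a 1 and of the libraries numbered 3 are therefore given apart where a result rests on them.

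As a list, the members moved little. Among the 39 members 1 fell and none rose (edgeR quasi-likelihood test, adjusted p under 0.05), or 2.56% lower where the share over all tested genes was 0.976% lower and 0.433% higher (1.41% in either direction); at an unadjusted p under 0.05, 5 were lower and 1 higher (12.8% and 2.56%, against 7.51% and 6% of all tested genes), and DESeq2 and limma-voom each called 1 lower and 0 higher. With the replicate number as a block, 4 fell and 1 rose (10.3% and 2.56%), against 6.7% lower and 4.57% higher over all tested genes. The blocked shares lie near those of all genes, and the unblocked share is that of a single gene. In such bulk RNA, fewer cells that express a gene and less of its RNA per cell cannot be told apart. The log2 fold changes were negative for 19 members and positive for 20, with a median of 0.005 against -0.01 over all tested genes, and a median absolute value of 0.11 against 0.18; the members were more abundant than the tested genes as a whole (median 84.4 against 23.4 CPM). In 6 members every mimic library lay below every control library (15.4%, against 11.5% of all tested genes) and in 2 every mimic library lay above (5.13% against 9.73%).

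**Figure D1:**
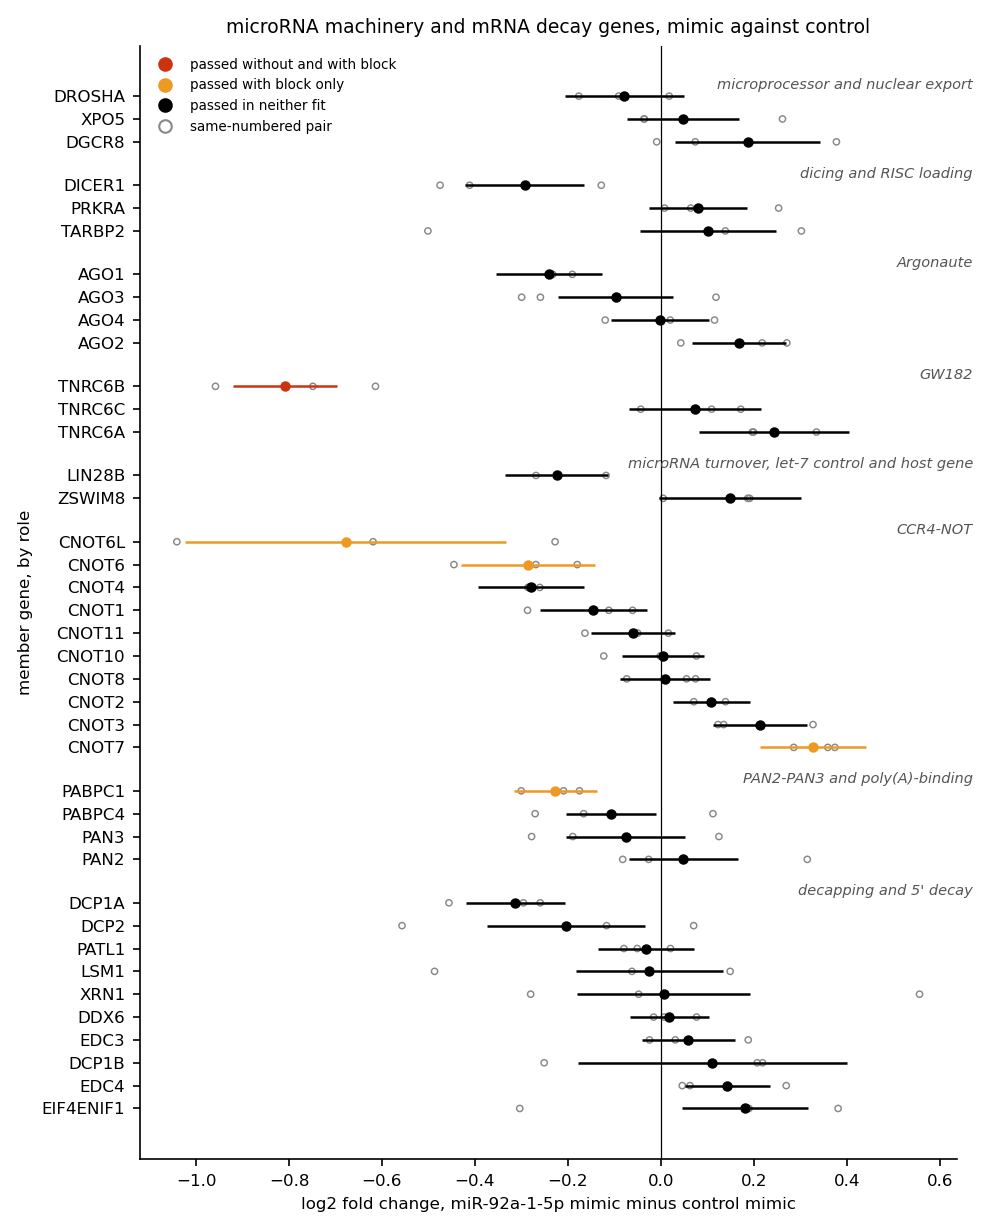
Log2 fold change (mimic minus control, x axis) of each of the 39 measured members, grouped by role. Filled points with bars are the edgeR estimate ± SE without the block, coloured by which fit the gene passed, and open circles are the differences of the 3 same-numbered pairs; TNRC6B at -0.81 is the only member that passed in both fits, and all other members lie between -0.68 (CNOT6L) and 0.33 (CNOT7).

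Among the GW182 proteins, the adaptors between Argonaute and the deadenylases, TNRC6B fell and its relatives did not pass the test. TNRC6B had 70.8, 67.6 and 80.0 CPM in scramble 1, 2 and 3 and 46.3, 40.2 and 41.1 CPM in miR92a 1, 2 and 3, on 34 counts in miR92a 1 and at least 1026 elsewhere. All 3 mimic libraries lay below all 3 controls, and the deep mimic libraries gave the lowest values. The change from 72.8 ± 6.43 to 42.5 ± 3.26 CPM (mean ± SD, n = 3) was a log2 fold change of -0.81 ± 0.11 (SE, edgeR adjusted p = 0.0127), and with the block -0.82 ± 0.10 (adjusted p = 2.1e-05). The pairs numbered 1, 2 and 3 differed by -0.61, -0.75 and -0.96. Without scramble 1 or without miR92a 2 the unblocked change was of similar size (-0.82 and -0.78) but missed the threshold (adjusted p = 0.0651 and 0.0843), and it passed without each of the other libraries (adjusted p at most 0.0458). With the block it passed without each pair, from -0.73 without pair 3 to -0.86 without pair 2 (adjusted p up to 4.8e-04).

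TNRC6A, the most abundant of the family per length of the longest annotated transcript, had 125, 117 and 162 CPM in the control and 158, 134 and 187 CPM in the mimic libraries, with overlapping groups, a log2 fold change of 0.24 ± 0.16 (edgeR adjusted p = 0.588) and a blocked value of 0.23 ± 0.08 (adjusted p = 0.0831). The 2 libraries numbered 3 were the highest of their groups. Without pair 3 the blocked fit called it higher (0.23, adjusted p = 0.0428). That fit rests on pairs 1 and 2 alone, and pair 1 holds the shallow miR92a 1. How many of all tested genes it called was not counted. The unblocked TNRC6A value ranged from 0.08 without miR92a 3 to 0.40 without scramble 3 (adjusted p = 0.923 and 0.252). TNRC6C lay at 20.3 to 25.1 CPM in the control and 21.9 to 24.3 CPM in the mimic libraries (log2 fold change 0.07 ± 0.14). Per kb of the longest annotated transcript, the control levels were 16.0 ± 2.86 CPM for TNRC6A, 3.98 ± 0.352 for TNRC6B and 2.25 ± 0.278 for TNRC6C (SD, n = 3), with no overlap between neighbours. In the mimic libraries TNRC6B (2.20 to 2.53 CPM per kb) and TNRC6C (2.25 to 2.50) overlapped, so that their order could not be told. These levels depend on the transcript length used, 18279 bases for TNRC6B.

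The count ratio of TNRC6B to TNRC6A within a library does not depend on how libraries are scaled. Its log2 value was -0.82, -0.79 and -1.02 in the control and -1.77, -1.74 and -2.18 in the mimic libraries, a difference of -1.02 with no overlap between groups. The AGO1 to AGO2 and CNOT6 to CNOT7 ratios differed by -0.40 and -0.64 with non-overlapping groups, and that of CNOT6L to CNOT7 by -0.97 with overlapping groups. For AGO1 to AGO2 the margin was narrow, between -1.037 in scramble 3 and -1.055 in miR92a 2. For CNOT6 to CNOT7 it lay between -0.768 in scramble 1 and -0.819 in miR92a 3. These 4 ratios were chosen after the values were seen, each with a numerator that was lower and a denominator that was higher in the mimic group, so they are given without a test.

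**Figure D2:**
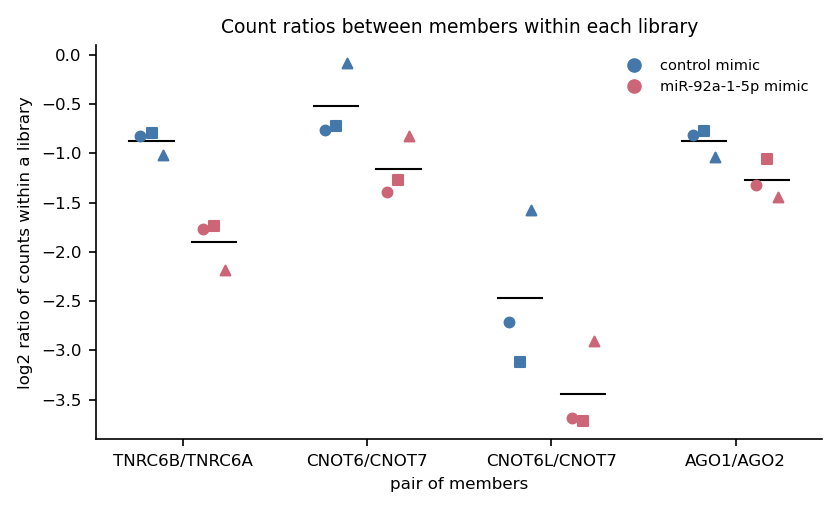
Log2 ratio of the counts of 2 members within each library (y axis) for 4 pairs of members, with circles, squares and triangles for replicates 1, 2 and 3 and lines at group means. The mimic libraries sit below the controls for TNRC6B/TNRC6A and, by narrow margins, for CNOT6/CNOT7 and AGO1/AGO2. For CNOT6L/CNOT7, miR92a 3 at -2.91 lies above scramble 2 at -3.11.

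In the CCR4-NOT complex, which shortens poly(A) tails, none of the 10 members passed without the block. With it, CNOT6 and CNOT6L, nucleases of the CCR4 type, fell and CNOT7, a nuclease of the CAF1 type, rose, while CNOT8, the other CAF1-type nuclease, had a value of 0.01 ± 0.09 (edgeR adjusted p = 0.994). Each of the 3 calls was lost without at least 1 pair. CNOT6L had 20.9, 15.2 and 38.8 CPM in the control and 13.6, 13.0 and 18.8 CPM in the mimic libraries. Scramble 3 stood alone at 38.8 CPM, where no other library exceeded 20.9, and the groups overlapped. The log2 fold change was -0.68 ± 0.35 (edgeR adjusted p = 0.451) and with the block -0.65 ± 0.16 (adjusted p = 0.0128); without pair 3 the blocked value was -0.31 (adjusted p = 0.497). CNOT6 had 80.3, 80.1 and 109 CPM in the control and 66.7, 70.7 and 79.9 CPM in the mimic libraries. The groups did not overlap, by the narrow margin between 79.9 in miR92a 3 and 80.1 in scramble 2. Its change was -0.29 ± 0.14 (adjusted p = 0.448) and -0.31 ± 0.09 with the block (adjusted p = 0.041), and without any 1 pair the blocked call was lost (-0.20 to -0.39, adjusted p from 0.103 to 0.201).

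CNOT7 had 137, 132 and 116 CPM in the control and 176, 171 and 141 CPM in the mimic libraries, so that every mimic library was above every control, with replicate 3 the lowest in both groups. The change was 0.33 ± 0.11 (edgeR adjusted p = 0.258), and 0.34 ± 0.08 with the block (adjusted p = 0.01); the pairs gave 0.36, 0.37 and 0.29. Without pair 3 the blocked value was 0.37 (adjusted p = 7.0e-05), and without pair 1 or 2 the call was lost (adjusted p = 0.0535 and 0.228). CNOT8 lay at 71.4 to 82.3 CPM in the control and 75.2 to 80.3 CPM in the mimic libraries (log2 fold change 0.01 ± 0.10). Per kb of the longest transcript the control levels were 28.4 ± 2.02 CPM for CNOT8, 18.5 ± 1.60 for CNOT7, 14.2 ± 2.62 for CNOT6 and 2.82 ± 1.39 for CNOT6L (SD, n = 3). The ranges of CNOT7 and CNOT6 overlapped in the control libraries (16.7 to 19.8 and 12.7 to 17.3) but not in the mimic libraries (20.4 to 25.4 and 10.6 to 12.7). These levels per kb depend on the transcript length used, 2708 bases for CNOT8 and 6913 for CNOT7. In CPM not divided by length, CNOT7 lay above CNOT8 in every library, so the order of these genes could not be told.

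Among the other subunits, the scaffold CNOT1 had 475, 473 and 533 CPM in the control and 439, 387 and 511 CPM in the mimic libraries (log2 fold change -0.14 ± 0.12), with overlapping groups. In the blocked fit without pair 3 it fell by 0.23 (edgeR adjusted p = 0.0145). How many of all tested genes that fit called was not counted. CNOT11, which forms a module with CNOT10 at the other end of the scaffold, lay at 126 to 142 CPM in the control and 127 to 137 CPM in the mimic libraries. CNOT4, a ubiquitin ligase that associates with the complex, and CNOT2, which with CNOT3 forms its NOT module, had groups that did not overlap, CNOT4 lower (-0.28 ± 0.11, adjusted p = 0.334) and CNOT2 higher (0.11 ± 0.08, adjusted p = 0.65); both are named after their values were seen. CNOT4 had 40.8, 43.5 and 38.6 CPM in the control and 34.0, 35.7 and 31.7 CPM in the mimic libraries, and its pairs differed by -0.26, -0.29 and -0.28. CNOT3 and CNOT10 had log2 fold changes of 0.21 ± 0.10 and 0.005 ± 0.09.

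**Figure D3:**
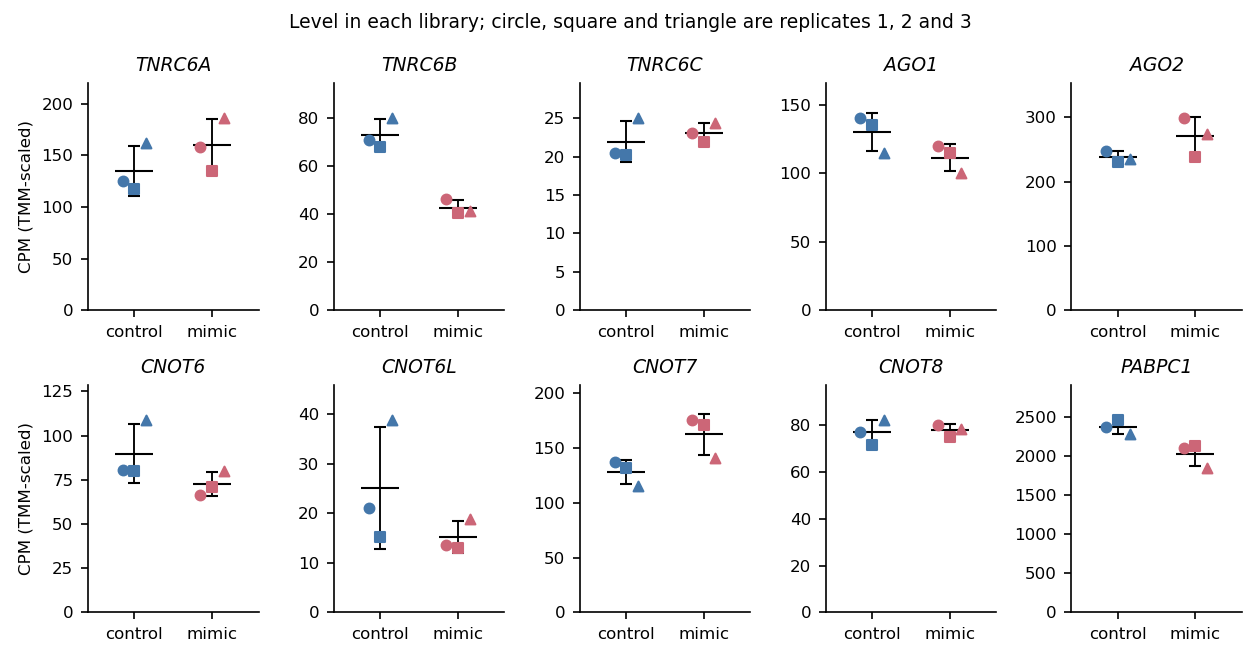
TMM-scaled CPM (y axis, from 0) of 10 members in each library, with circles, squares and triangles for replicates 1, 2 and 3, and mean ± SD (n = 3) in black. TNRC6B is lower in all 3 mimic libraries, CNOT7 is higher in all 3, and for CNOT6L the control spread is set by scramble 3 at 38.8 CPM.

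Of the poly(A)-binding and PAN2-PAN3 members, PABPC1, the main cytoplasmic poly(A)-binding protein, passed with the block. It had 2370, 2459 and 2279 CPM in the control and 2099, 2127 and 1851 CPM in the mimic libraries, so the groups did not overlap, and miR92a 3 was the lowest library. The log2 fold change was -0.23 ± 0.09 (edgeR adjusted p = 0.318) and with the block -0.23 ± 0.07 (adjusted p = 0.0394). The blocked call was lost without pair 1 or 2 (adjusted p = 0.129 and 0.291) and held without pair 3 (-0.19, adjusted p = 0.0235). PABPC1 has processed pseudogenes and close relatives with which reads can be shared, so its level is uncertain; its 3′ UTR held no match for either strand. Its relative PABPC4 lay at 318 to 384 CPM in the control and 318 to 344 CPM in the mimic libraries (-0.11 ± 0.10). Without scramble 3 that value was -0.19 (edgeR adjusted p = 0.347), and the blocked fit without pair 3 called PABPC4 lower (-0.20, adjusted p = 0.0475). PAN2, the catalytic subunit of the first deadenylase, lay at 99.5 to 124 and 104 to 124 CPM (0.05 ± 0.12), and its partner PAN3 had a log2 fold change of -0.08 ± 0.13.

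None of the 4 Argonautes passed in either fit. AGO2, which can cleave a fully paired target, had 248, 231 and 235 CPM in the control and 299, 238 and 273 CPM in the mimic libraries (log2 fold change 0.17 ± 0.10, edgeR adjusted p = 0.545). AGO1 had 141, 135 and 115 CPM against 120, 114 and 100 CPM (-0.24 ± 0.11, adjusted p = 0.411). For both genes a single library caused the overlap: miR92a 2 lay among the AGO2 controls, and scramble 3 among the AGO1 mimic values. The AGO1 pairs differed by -0.23, -0.24 and -0.19, and without pair 3 the blocked fit called it (-0.24, adjusted p = 0.0381). AGO3 lay at 44.6 to 47.9 CPM in the control and 36.7 to 48.4 CPM in the mimic libraries (-0.10 ± 0.12), and AGO4 at 46.2 to 48.3 and 43.8 to 50.0 CPM (-0.002 ± 0.10). Per kb of the longest transcript the control order was AGO2 (16.3 ± 0.612 CPM), AGO1 (9.50 ± 1.01), AGO4 (6.65 ± 0.153) and AGO3 (2.33 ± 0.0899), with no overlap between neighbours, and the same order without overlap held in the mimic libraries. This order depends on the transcript lengths used, 19687 bases for AGO3 and 7116 for AGO4, and the SDs do not cover an error in them. In CPM not divided by length, AGO3 and AGO4 overlapped in both groups.

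Of the processing enzymes, no member of the microprocessor, export and dicing groups passed. DICER1 had 56.8, 54.4 and 67.9 CPM in the control and 40.8, 49.8 and 51.0 CPM in the mimic libraries, without overlap, on 30 counts in miR92a 1. The log2 fold change was -0.29 ± 0.13 (edgeR adjusted p = 0.366) and with the block -0.30 ± 0.11 (adjusted p = 0.076). DGCR8, the RNA-binding partner of DROSHA, had 312, 321 and 365 CPM in the control and 310, 338 and 475 CPM in the mimic libraries, where miR92a 3 alone stood above all others (0.19 ± 0.16). XPO5 had 253, 248 and 190 CPM against 246, 242 and 228 CPM (0.05 ± 0.12). DROSHA, the nuclease of the microprocessor, lay at 120 to 149 CPM in the control and 110 to 140 CPM in the mimic libraries (-0.08 ± 0.13), and the DICER1 cofactors PRKRA and TARBP2 had 0.08 ± 0.11 and 0.10 ± 0.15, with TARBP2 lowest in the shallow miR92a 1 (31.3 CPM, 23 counts, against 41.5 to 51.1 CPM elsewhere).

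LIN28B, which blocks maturation of let-7 microRNAs, had 189, 180 and 163 CPM in the control and 174, 154 and 136 CPM in the mimic libraries. Each mimic library was below its same-numbered control, with log2 differences of -0.12, -0.22 and -0.27, but the groups overlapped and neither fit passed (-0.22 ± 0.11, edgeR adjusted p = 0.432; adjusted p = 0.0989 with the block). ZSWIM8, the receptor subunit of the ubiquitin ligase that removes Argonaute in target-directed microRNA decay, had 79.8, 83.7 and 102 CPM against 91.2, 83.9 and 117 CPM (0.15 ± 0.15). In both groups its highest library was number 3.

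The decapping and 5′ decay group held no member that passed. DDX6, the helicase that joins CCR4-NOT to decapping, had 267, 256 and 277 CPM in the control and 282, 253 and 279 CPM in the mimic libraries (log2 fold change 0.02 ± 0.08), with each control value inside the mimic range. EDC4, a scaffold of the decapping complex, had 122, 133 and 123 CPM against 128, 137 and 148 CPM (0.14 ± 0.09, edgeR adjusted p = 0.576). DCP1A, a cofactor of the decapping enzyme that is named after its values were seen, had 43.0, 41.0 and 42.6 CPM in the control and 31.3, 33.4 and 35.6 CPM in the mimic libraries. Its groups did not overlap and the controls lay close together, but neither fit passed (-0.31 ± 0.11, adjusted p = 0.247; adjusted p = 0.0955 with the block). The decapping enzyme DCP2 had a log2 fold change of -0.20 ± 0.17, set by miR92a 3 at 72.1 CPM where all other libraries lay at 106 to 119. XRN1, the nuclease that digests decapped messengers, had 57.3, 55.9 and 78.6 CPM in the control and 84.4, 54.1 and 64.7 CPM in the mimic libraries (0.01 ± 0.19), with the highest value in the shallow miR92a 1 (62 counts). LSM1, of the cytoplasmic LSM ring, and EIF4ENIF1, which binds the cap-binding protein, were each lowest in miR92a 1 (34.0 and 38.1 CPM) and highest in miR92a 3 (57.0 and 58.2 CPM). The log2 fold changes of EDC3, XRN1, PATL1, LSM1, EIF4ENIF1 and DCP1B lay between -0.03 and 0.18, and DCP1B rested on 2 counts in miR92a 1.

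The members' seed matches and their changes were set side by side without a test. The 10 members with a miR-92a-1-5p 7mer or 8mer in the 3′ UTR had a median log2 fold change of -0.17, with 6 negative (60%), and the 29 without one a median of 0.01, with 13 negative (44.8%). Over all tested genes the medians were -0.13 with and 0.01 without a match (67.6% and 48.4% negative). By class, the 6 members with at best a 7mer-A1 had a median of -0.26 (all genes of that class -0.12) and the 4 with a 7mer-m8 one of 0.11 (all genes -0.12). TNRC6B and TNRC6A were the lowest and highest of these 4 members, at -0.81 and 0.24. Both lay between the 5th and 95th percentiles of all genes of the 7mer-m8 class (-0.87 and 0.39). The 11 members with a miR-92a-3p 7mer or 8mer in the 3′ UTR had a median of -0.20 (8 negative, 72.7%). All genes with one had a median of -0.07 (61.2% negative). The 28 members without one had a median of 0.03 (39.3% negative), against 0.005 for all genes without one (49.2% negative). The 4 members TNRC6B, CNOT6, AGO2 and AGO3 held 3′ UTR matches of both strands.

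**Figure D4:**
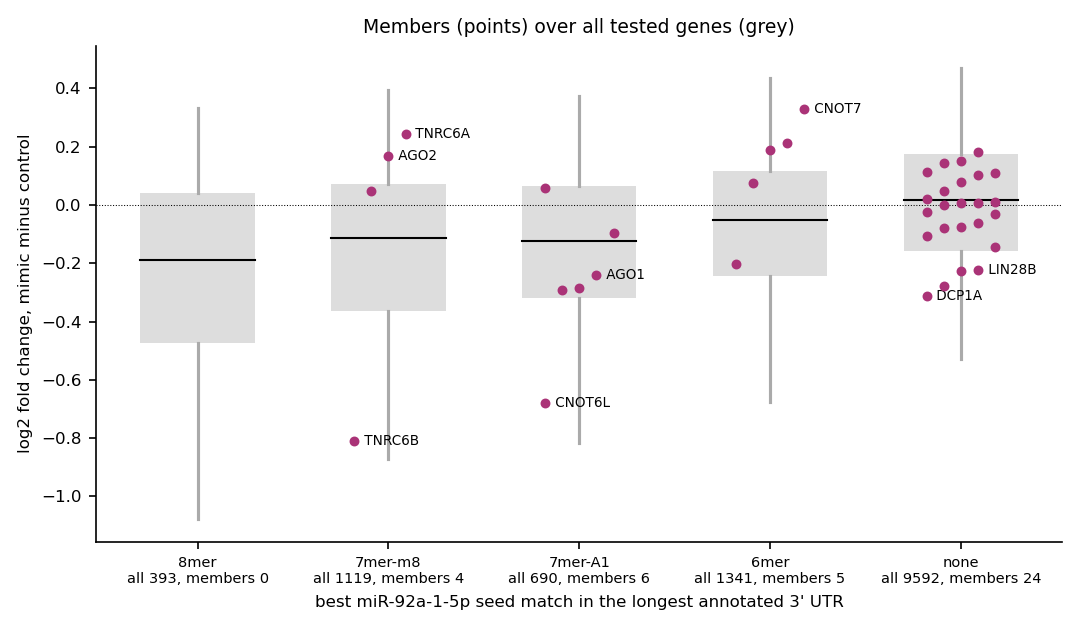
Log2 fold change (mimic minus control, y axis) by the best miR-92a-1-5p seed match in the longest annotated 3′ UTR (x axis). Grey boxes span the middle 50% of all tested genes of a class, grey lines reach from the 5th to the 95th percentile, black lines are medians, and points are the 39 members; 6 members lie below the box of their class (TNRC6B and CNOT6L with a 7mer; LIN28B, CNOT4, PABPC1 and DCP1A with no match) and 6 above (TNRC6A and AGO2 with a 7mer-m8; CNOT7, CNOT3 and DGCR8 with a 6mer; EIF4ENIF1 with no match).

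A list of 96 related genes, with further processing, decay and surveillance factors and no member in common, was examined in the same way. All 96 had a row, 7 of them under an older symbol, and 95 were tested. None passed without the block. At an unadjusted p under 0.05, 12 were lower and 6 higher (12.6% and 6.32%, against 7.51% and 6% of all tested genes), while DESeq2 called 0 lower and 1 higher and limma-voom 0 in either direction. With the block 10 fell and 5 rose (10.5% and 5.26%, against 6.7% and 4.57%). The log2 fold change was positive for 54 of the 95, against 7019 of the 14543 tested genes. It was positive for 14 of 18 exosome and SKI genes and 12 of 17 LSM, decapping and deadenylase genes. For the microRNA processing and RISC factors this was 13 of 24, and for the ZSWIM8 ligase partners 3 of 4. In nonsense-mediated decay it was 6 of 14, and among decay adaptors 6 of 18. In 19 related genes every mimic library lay above every control library (20%, against 9.73% of all tested genes and 5.13% of the members), and in 10 every mimic library lay below (10.5%, against 11.5% and 15.4%). By list, 4 of 24 further microRNA processing and RISC factors fell with the block and 1 rose, 2 of 17 LSM, decapping and deadenylase genes rose, 1 of 18 exosome and SKI genes rose, 3 of 14 nonsense-mediated decay genes fell and 1 rose, 3 of 18 decay adaptors fell, and 0 of 4 ZSWIM8 ligase partners passed. Of these 15 calls with the block, 3 (LSM3, LSM4 and EIF4A3) were also made without each pair in turn, and 12 were lost without at least 1 pair.

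The LSM ring binds deadenylated messengers and promotes their decapping; LSM3 had 51.9, 49.9 and 60.3 CPM in the control and 77.5, 74.6 and 85.1 CPM in the mimic libraries, a change of 0.55 ± 0.11 (edgeR adjusted p = 0.0612; 0.55 ± 0.10 and adjusted p = 6.8e-04 with the block). All mimic libraries lay above all controls. LSM4 rose by 0.37 ± 0.09 with the block (adjusted p = 0.00765) and by 0.25 without pair 3 (adjusted p = 0.0113). LSM3 and LSM4 also belong to the nuclear LSM ring of the spliceosome. HSPA8, a chaperone of Argonaute loading, and FAM120A, an Argonaute-associated RNA-binding protein, both fell by 0.33 with the block (adjusted p = 0.00838 and 0.0127). The HSPA8 call was lost without pair 1 or 2 (adjusted p = 0.172 and 0.0715) and that of FAM120A without pair 2 (adjusted p = 0.234). TUT4 and TUT7, named after their values were seen, add uridines to microRNA precursors and to deadenylated messengers; TUT4 had 104, 98.8 and 106 CPM in the control and 83.0, 82.2 and 84.3 CPM in the mimic libraries, and TUT7 had 40.6, 41.9 and 42.0 against 29.9, 33.5 and 31.1 CPM. Neither pair of groups overlapped, and both passed with the block (-0.30 ± 0.09 and -0.39 ± 0.12, adjusted p = 0.0284 and 0.0341) but not without it (adjusted p = 0.159 and 0.165). With the block, TUT4 missed the threshold without pair 1 or 2 (adjusted p = 0.0981 and 0.227) and TUT7 without any 1 pair (adjusted p from 0.0845 to 0.199).

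In the other lists, the exosome cap subunit EXOSC3 rose by 0.37 ± 0.10 with the block (edgeR adjusted p = 0.0154). Among nonsense-mediated decay factors EIF4A3, an exon junction helicase, fell by 1.07 ± 0.18 with the block (adjusted p = 5.7e-04), with a pair 3 difference of -1.76 against -0.60 and -0.57 in pairs 1 and 2 and with overlapping groups. Without pair 3 its blocked value was -0.57 (adjusted p = 0.00163). UPF3B, which links the exon junction complex to UPF2, fell by 0.39 ± 0.10 (adjusted p = 0.0168). TOB1 and TOB2, antiproliferative proteins that bind the CAF1-type nucleases CNOT7 and CNOT8, fell by 0.45 ± 0.13 and 0.43 ± 0.10 (adjusted p = 0.031 and 0.00966). None of these 5 genes passed without the block. The blocked calls of EXOSC3, UPF3B and TOB2 were lost without pair 2 (adjusted p = 0.212, 0.406 and 0.257), that of EXOSC3 also without pair 1 (0.0567), and that of TOB1 without any 1 pair (0.0821 to 0.14).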

How the data were processed

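Counts were available for 6 K562 cultures, 3 per mimic, and columns were matched to samples by the names the labels give. The deposited values are expected counts from kallisto with GRCh38, per the labels and the submitters' processing notes; the authors gave them per symbol as whole numbers, unscaled. The kallisto version, annotation, strand and summing over transcripts are not given in the sources used here.

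EdgeR 4.0.16 in R 4.3.3 was run on the whole table: filterByExpr, TMM scaling, the quasi-likelihood F-test on group, Benjamini-Hochberg adjustment over the 14543 genes kept, threshold 0.05. Standard errors are the absolute log2 fold change over √F. CPM are scaled by TMM; pair differences used a prior count of 2. P-values without the block set the group difference against the spread between the 3 cultures per group. With the block they set it against the spread left after differences between replicate numbers are removed. Fits with a library or a pair left out rest on fewer cultures.

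The labels give both groups the replicate numbers 1 to 3 without saying what they share. Correlations of the deviations from the group mean, taken for libraries of equal number, were 0.15, 0.16 and 0.42 over all tested genes. Each exceeds the minimum of 0.1 set for pairing, so the blocked fit is given where it changes a call. In the 4829 abundant genes (mean 1000 counts or more) these were 0.37, 0.47 and 0.63, but the correlation of scramble 1 was higher with miR92a 2 (0.52), so that the pairing of replicates 1 and 2 is not shown by the data.

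Members and gene lists were chosen with earlier results of these data known. All members that passed in either fit, and up to 2 further members per role by mean CPM, were to be named with values, up to 2 per related list by p-value, and other members by range, count or direction; single values of those other members, and TUT4 and TUT7, were chosen after the values were seen. Seed matches were counted by Python 3.11.15 in the longest annotated 3′ UTR and its coding sequence per gene in GENCODE release 29, which matched 13135 tested genes (90.3%). Promoter sequences were not used here. Mature microRNA sequences are RefSeq's (GRCh38.p14). DESeq2 1.42.0, limma-voom (limma 3.58.1), 2 other scalings, 2 other filters and leaving out libraries were alternatives; leaving out pairs in the blocked fit, and the count ratios, were added after the data were seen. Calls over all tested genes were not counted for the fits with a pair left out, so member calls there have no background share beside them. The fit without pair 3 also relies on the pairing of replicates 1 and 2. The code was tested on simulated data.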

Additional observations from a re-analysis of the deposited data

How the results depend on the processing

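TNRC6B was lower in all 16 alternatives; it missed the threshold without scramble 1 or miR92a 2 alone, and the cause was not tested. The count of 1 lower and 0 higher members was the same with DESeq2, limma-voom, both other scalings and both other filters. With the replicate block it was 4 and 1, and with a library or a pair left out 0 to 5 and 0 to 2. Over all genes, 142 were lower and 63 higher without the block, 975 and 664 with it, 247 and 140 with DESeq2, and 56 to 148 and 14 to 53 with a library left out. The block, a pairing taken from the replicate numbers, turned the sign of AGO4 (0.0021) and XRN1 (-0.028), limma-voom that of XRN1 (-0.067) and LSM1 (0.026), and total counts alone that of AGO4 (0.014). Leaving out libraries or pairs turned the sign of members that passed in no fit, over ranges of -0.28 to 0.042 (AGO3), -0.080 to 0.097 (AGO4), -0.049 to 0.045 (CNOT10), -0.041 to 0.071 (CNOT8), -0.10 to 0.27 (DCP1B), -0.40 to 0.029 (DCP2), -0.011 to 0.068 (DDX6), -0.029 to 0.29 (DGCR8), -0.20 to 0.025 (DROSHA), -0.014 to 0.13 (EDC3), -0.23 to 0.062 (LSM1), -0.047 to 0.14 (PAN2), -0.26 to 0.069 (PAN3), -0.11 to 0.036 (PATL1), -0.075 to 0.13 (XPO5), -0.16 to 0.17 (XRN1) and -0.040 to 0.27 (ZSWIM8); their causes were not tested. The depth of miR92a 1 limits members with few counts there, down to 2 for DCP1B. DESeq2 gave no adjusted p for DCP1B.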
